A study of Apostichopus japonicus with 3 samples.

Results

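Strong light was compared directly with darkness in the sea cucumber Apostichopus japonicus, using 1 messenger RNA library from each condition. The light library came from animals exposed for 2 h to light of about 2000 lux. The dark library came from animals held for 2 h without light, in a tank under a shade cloth. The other library of the 3 in the series, from animals in natural light of about 100 lux, was not used here. How many animals each library drew on is not stated in the labels, and no mutant or drug enters either group. With 1 library per condition there is no replicate check and no test between conditions, so each difference below separates 2 libraries.

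The features were isotigs, transcripts assembled from the reads, and their reads were summed by KEGG orthology, a group of genes in different species taken to be the same gene. Each isotig was placed in the first orthology of its KEGG hit. Of the 3402 orthologies with any read in the light or dark library (3418 over all 3 libraries), 2239 held at least 50 reads over the 2 libraries and are described. They gathered 5649 isotigs, and 1058 of them rest on 1 isotig. At the limit, the 144 orthologies of 50 to 59 reads had log2 ratios of light over dark between -1.93 and 2.90, and the 172 of 40 to 49 reads, left out, lay between -2.62 and 2.25.

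The body wall of a sea cucumber is mostly collagenous connective tissue whose stiffness the animal can alter through its nerves, with epidermis outside and muscle inside. It also holds coelomocytes, the immune cells of echinoderms. Sea cucumbers have no eyes, and their skin responds to light. The tissue label names the body wall and the source label names the intestine, so marker genes of both were read. Markers of connective tissue (15 orthologies) took 3.02% of light reads and 2.65% of dark reads, led by fibrillar collagen with 37922 reads in the light library and 33363 reads in the dark library. Those of the gut (11 orthologies) took 0.271% of light reads and 0.259% of dark reads. Trypsin supplied most of them, with 3812 light reads and 3565 dark reads. Meprin and carboxypeptidase A orthologies were at 0 to 2 reads in either library, and alpha-amylase had 14 reads in light and 21 in dark. Muscle markers took 0.437% of light reads and 0.322% of dark reads, coelomocyte markers took 1.77% of light reads and 1.88% of dark reads, and nerve markers took 0.0367% of light reads and 0.0199% of dark reads. In such bulk RNA, fewer cells of a type and less RNA per cell cannot be told apart.

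The described orthologies held 867772 reads of the light library and 786106 reads of the dark library, which is 52.8% of all light reads and 46.3% of all dark reads. The whole light library had 0.969 times the reads of the dark library. Dividing by these library totals and dividing by median-of-ratios size factors gave different pictures. The size factors were 1.21 for light and 0.824 for dark, so the median orthology had a log2 ratio of -0.02 on that scale and 0.58 on library totals. The shift between the scales was 0.61 (log2), or 1.52-fold, the same for every gene. Ratios below are log2 of light over dark on size factors, relative to the typical orthology, with the value on totals beside them where given.

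On size factors, 169 orthologies (7.55%) stood 2-fold or more higher in light, and 229 (10.2%) stood 2-fold or more lower. On totals, 617 (27.6%) stood 2-fold or more higher and 21 (0.938%) that much lower. Higher ones thus made up 42.5% of such orthologies on size factors and 96.7% on totals. All 169 stayed at least 2-fold higher on totals, and 21 of the 229 stayed at least 2-fold lower. For 645 orthologies the 2 scales gave opposite signs. In all 398 the exact 95% interval of the ratio, which covers counting error only, lay off 1. With at least 50 reads and a 2-fold limit this followed almost by construction, so it adds no support. Orthologies of 50 to 99 reads had an upper bound a median of 2.87 times the lower one, and those of 1000 reads or more 1.18 times. Of the 282 orthologies with 1000 reads or more, 9 reached 2-fold higher and 87 reached 2-fold lower, and 69 of those 87 were ribosomal proteins.

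**Figure D1:**
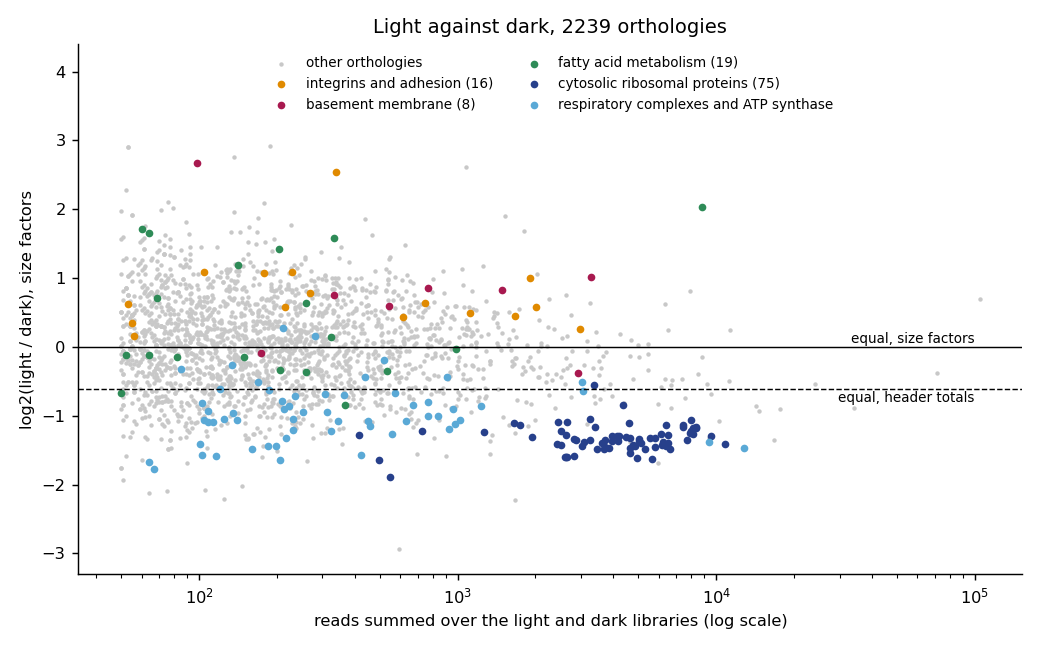
Each point is 1 of 2239 orthologies, with its reads over both libraries (x, log scale) against log2 of light over dark on size factors (y); coloured points are members of named gene lists. The solid line marks equality on size factors and the dashed line equality on library totals, 0.61 below it. Ribosomal proteins form a band near -1.34, below both lines apart from L3e, while adhesion genes lie above both.

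Proteins of the cytosolic ribosome, the machine that makes protein, were lower in the light library almost without exception. The list had 75 members, and 73 were at least 2-fold lower against 10.2% of all orthologies. None was higher. Their median was -1.34 on size factors and -0.73 on totals, and on totals 74 of 75 lay below 0 while 4 were at least 2-fold lower. Together they took 7.84% of light reads and 12.8% of dark reads. The large subunit (45 members) and the small subunit (30 members) had the same median, -1.34. At the low end, L23Ae had 156 reads in light and 392 in dark, a ratio of -1.89. L44e followed with 159 light reads and 336 dark reads (-1.64), and L35e with 1815 light and 3813 dark reads (-1.63). In the small subunit S15Ae had 1609 light reads and 3349 dark reads (-1.62). The member with the most reads, L13e, counted 3857 in light and 6938 in dark, which put it 2.65-fold lower (counting interval 2.55 to 2.76). Exceptions to the 2-fold count were the stalk protein LP0, with 1972 light reads and 2394 dark reads (-0.84), and L3e. L3e had 1685 reads in light and 1686 in dark, so that its ratio was -0.56 on size factors and 0.05 on totals.

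Elongation factors, which carry tRNAs to the ribosome and move it along the messenger, showed the same size of difference. Elongation factor 1-alpha had 1874 reads in light and 4092 in dark, a 3.22-fold lower value (interval 3.05 to 3.40) that held on totals (-1.08). Elongation factor 2, the translocation factor, had 446 light reads and 887 dark reads (-1.55, and -0.94 on totals). The beta subunit of factor 1 stood at 232 reads in light and 465 in dark (-1.56), and the gamma subunit at 266 light and 403 dark reads (-1.16). Of 5 members 4 were at least 2-fold lower, against 10.2% of all orthologies. The delta subunit lay at the edge with 64 light reads and 87 dark reads, just under the limit.

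Initiation factors, which load the ribosome onto the messenger, did not follow. Of 23 members 2 were at least 2-fold lower, against 10.2% of all orthologies, and none higher. Their median was -0.16 on size factors and 0.44 on totals. Initiation factor 5A, which despite its name assists elongation, had 1327 reads in light and 896 in dark, a ratio of 0.01 on size factors and 0.61 on totals. The scaffold 4G had 2094 light reads and 1555 dark reads (-0.13, and 0.48 on totals). The lower members were factor 6, with 20 reads in light and 34 in dark (-1.31), and subunit E of factor 3, with 94 light and 141 dark reads (-1.14). Of 16 aminoacyl-tRNA synthetases, which charge tRNAs, 2 were at least 2-fold lower, against 10.2% of all orthologies. These were tryptophanyl-tRNA synthetase (83 light reads, 178 dark reads, -1.66) and the phenylalanyl beta chain (57 light and 118 dark reads, -1.60). The list median was -0.14 (totals 0.47).

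The mitochondrial respiratory chain was the other low group. In complex I, which feeds electrons from NADH into the chain, 11 of 26 members were at least 2-fold lower and none higher (median -0.95, totals -0.34). In complexes II to IV the count was 13 of 20 (median -1.07, totals -0.46), and in the F-type ATP synthase 7 of 13 (median -1.04, totals -0.44). Among all orthologies 10.2% were at least 2-fold lower. The most-read members of these respiratory lists were cytochrome c oxidase subunit 1 and ATP synthase subunit a, both encoded in the mitochondrial genome of animals. Subunit 1 had 4443 light reads and 8352 dark reads, 2.77-fold lower (interval 2.67 to 2.87). Subunit a had 3379 reads in light and 5996 in dark, 2.62-fold lower (2.51 to 2.73). The nuclear-encoded subunits covered a wider range. NADH dehydrogenase 1 alpha subcomplex 1 stood lowest in complex I with 66 light reads and 140 dark reads (-1.64, best E-value 4e-10). Fe-S protein 5 had 34 light and 69 dark reads (-1.57), and Fe-S protein 4 had 80 light and 136 dark reads (-1.32). Fe-S protein 1, the largest subunit, had 472 reads in light and 434 in dark, which is -0.44 on size factors and 0.17 on totals. A single complex I member lay above 0 on both scales, 1 alpha subcomplex 10, with 136 light reads and 76 dark reads (0.28, totals 0.88). In the ATP synthase the catalytic beta subunit came nearest to equality, with 1540 light reads and 1484 dark reads (-0.51, totals 0.10), and subunit alpha had 1489 light and 1575 dark reads (-0.64, totals -0.03). Cytochrome c reductase subunits 8 and 9 had 140 and 70 reads in light, against 282 and 129 reads in dark (-1.57 and -1.44).

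Other proton-pumping and energy genes differed less. No member of the V-type proton pump, which acidifies vesicles, was 2-fold apart (12 members, median -0.37, totals 0.23, so its sign depends on the scale). Glycolysis and the citrate cycle had 2 of 19 members at least 2-fold lower, against 10.2% of all orthologies. These were triosephosphate isomerase (57 light reads, 98 dark reads, -1.34) and the succinyl-CoA synthetase alpha subunit (139 light and 202 dark reads, -1.10). Fructose-bisphosphate aldolase had 1493 reads in light and 1136 in dark, -0.17 on size factors and 0.44 on totals. A mitochondrial carrier of the uncoupling protein family went the other way, with 201 light reads and 56 dark reads (1.28, totals 1.88).

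Lipid genes held some of the highest ratios. Apolipoprotein B, in vertebrates the structural protein of lipoprotein particles, counted 7552 reads in light and 1251 in dark, a 4.10-fold difference (interval 3.86 to 4.35), and on totals a log2 ratio of 2.64. Both of its isotigs were higher. Carnitine O-palmitoyltransferase 1, which admits long-chain fatty acids to the mitochondrion, had 272 light reads and 61 dark reads (3.03-fold, interval 2.28 to 4.06). Acetyl-CoA carboxylase, whose product malonyl-CoA starts fatty acid synthesis and inhibits that same transferase in mammals, had 53 light and 11 dark reads (1.66). Acetyl-CoA synthetase had 50 reads in light and 10 in dark (1.71). The elongase of very long chain fatty acids protein 6 followed with 163 light reads and 41 dark reads (1.42), and the peroxisomal acyl-CoA oxidase with 109 light and 32 dark reads (1.19). These 6 were the members at least 2-fold higher of 19 in the fatty acid list, against 7.55% of all orthologies, and none was lower. The list was divided, since its median was -0.04 on size factors and 0.57 on totals. Enzymes of the mitochondrial beta-oxidation cycle lay near or below 0 on size factors: acyl-CoA dehydrogenase had 285 reads in light and 246 in dark (-0.35, totals 0.26). A lipid transporter outside the list, ATP-binding cassette subfamily A member 3, had 370 light reads and 69 dark reads (1.85), with all 3 of its isotigs higher.

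**Figure D2:**
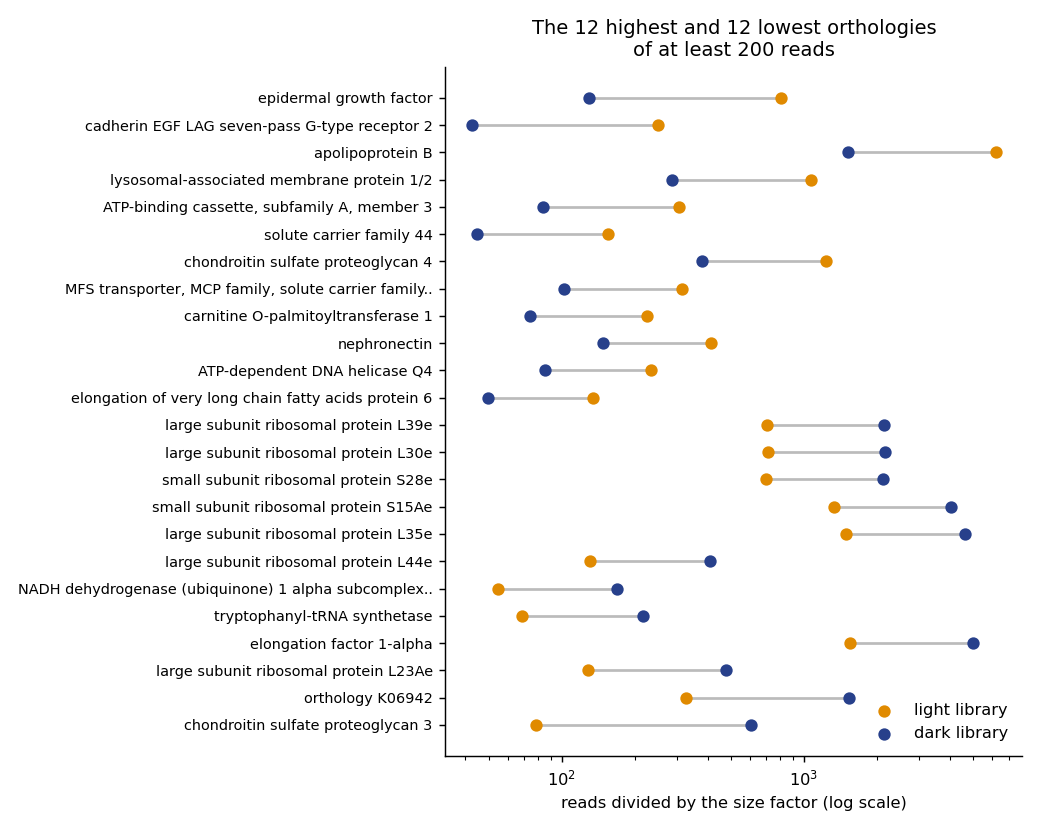
Reads divided by the size factor (x, log scale) in the light library (orange) and the dark library (blue) for the 12 highest and 12 lowest orthologies with at least 200 reads, ordered by ratio from top to bottom. Apolipoprotein B is the most heavily read of the higher ones, and 7 of the 12 lowest are ribosomal proteins.

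Genes that attach cells to each other and to the matrix lay on the higher side in light. All 16 members of the adhesion list lay above 0 on both scales, where 49.2% of all orthologies lay above 0 on size factors, and their median was 0.60 (totals 1.21). Of these, 5 were at least 2-fold higher, against 7.55% of all orthologies, and none lower. Integrin beta 1, the common partner of most integrin alpha chains, had 1425 light reads and 482 dark reads, 2.01-fold higher (interval 1.81 to 2.23), with all 7 isotigs of at least 20 reads on the same side. Integrin alpha 6, which pairs with it to bind laminin in mammals, had 135 reads in light and 43 in dark (1.08). Integrin alpha 9 had 79 light and 25 dark reads (1.08), and discs large, a scaffold of cell junctions, 173 light and 55 dark reads (1.08). The highest was the flamingo cadherin CELSR2, a receptor for planar polarity of epithelia, with 304 light reads and 35 dark reads, 5.89-fold higher (interval 4.15 to 8.62). Its relative CELSR1 had 1113 light and 553 dark reads (0.45). Linkers to actin were above 0 by less: talin had 754 reads in light and 362 in dark (0.50), and filamin 1891 light and 1073 dark reads (0.26). Nerve markers, 1 of which (the neural cell adhesion molecule, 148 light and 67 dark reads) is in this list, summed to 604 light reads and 338 dark reads (0.28 on size factors), and their part in these values was not tested.

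The basement membrane, the sheet of matrix that integrins bind, had 2 of 8 members at least 2-fold higher, against 7.55% of all orthologies. Its median was 0.79 (totals 1.39). Nidogen, which links laminin to collagen IV, had 2454 light reads and 821 dark reads, 2.03-fold higher (interval 1.87 to 2.20). Collagen XVIII had 89 reads in light and 9 in dark (2.68). Collagen IV, the network former, had 1071 light and 411 dark reads (0.82), laminin gamma 1 had 561 light and 209 dark reads (0.86), and laminin beta 1 had 236 light and 95 dark reads (0.75). The alpha chains of laminin differed from these: alpha 3/5 had 1548 light reads and 1366 dark reads, -0.38 on size factors and 0.23 on totals. The interstitial matrix was mixed. Chondroitin sulfate proteoglycan 4, a membrane proteoglycan, had 1493 reads in light and 314 in dark (1.69). Nephronectin, a ligand of integrin alpha 8 beta 1 in mammals, had 501 light and 122 dark reads (1.47), and integrin alpha 8 itself 519 light and 226 dark reads (0.64). The orthology named neurocan, a proteoglycan of the aggrecan family, was the lowest of all 2239, with 95 light reads and 497 dark reads, 7.71-fold lower (interval 6.18 to 9.71). Nearly all of these reads lay on a pair of isotigs with weak KEGG hits (E-values 7e-09 and 1e-08). Without isotigs whose E-value was above 1e-10, neurocan was left with 6 light reads and 5 dark reads, a ratio of -0.31. Tenascin had 6390 light and 7870 dark reads (-0.86, totals -0.25). Fibrillar collagen, which makes up most of the dermis, had a ratio of -0.37 on size factors and 0.23 on totals. Taken as 1 list, collagens and basement membrane held 21 orthologies, with a median of 0.10 (totals 0.70). Of these, 4 reached 2-fold higher and 1 reached 2-fold lower, against 7.55% and 10.2% of all orthologies.

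Proteases that release or cut matrix and surface proteins were split. The membrane-bound disintegrin metalloproteinase 10, a sheddase that cuts Notch in other animals, had 793 light reads and 245 dark reads (1.13), and disintegrin metalloproteinase 12 had 480 light and 158 dark reads (1.04). Tolloid-like protein 1, of the procollagen-processing family, had 81 light and 27 dark reads (1.01). Matrix metalloproteinases 12 and 17 were lower, with 23 and 31 reads in light, against 34 and 45 reads in dark (-1.11 and -1.09). Out of 17 in the whole list, 4 (23.5%, against 7.55% of all orthologies) reached 2-fold higher. Another 4 (23.5%, against 10.2%) reached 2-fold lower.

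**Figure D3:**
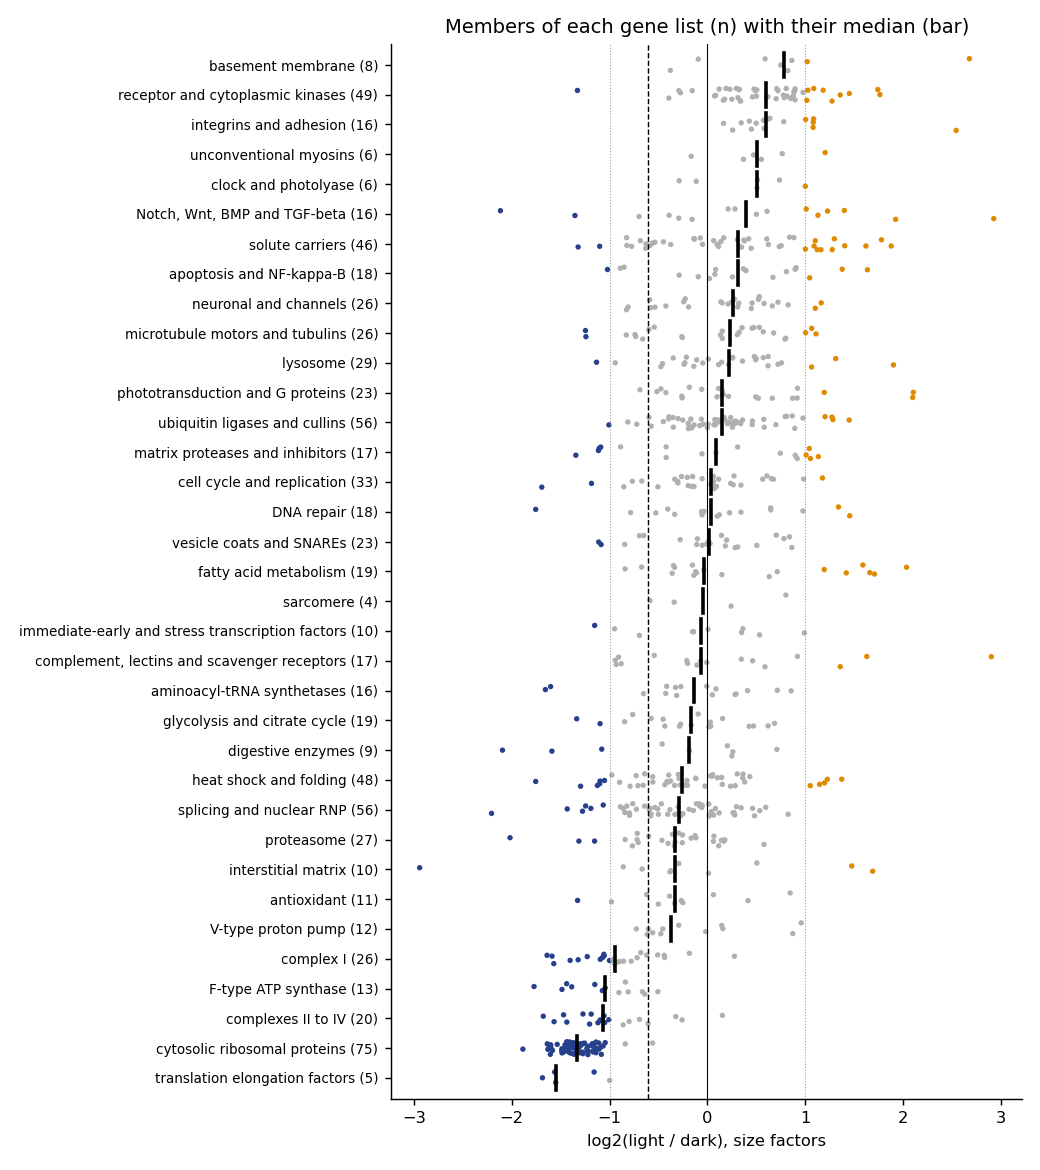
Log2 of light over dark on size factors (x) for each member of the lists of 4 or more orthologies; n stands in brackets, the black bar is the median, and the dotted lines mark 2-fold. Orange points are at least 2-fold higher in light and blue points at least 2-fold lower. The dashed line is equality on library totals, so a bar between it and 0 changes sign with the scale. Basement membrane, kinase and adhesion lists lie at the top, and ribosomal and elongation factor lists at the bottom.

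Signalling genes had more members on the higher side. Of 49 receptor and cytoplasmic kinases 9 (18.4%, against 7.55% of all orthologies) reached 2-fold higher and 1 (2.04%, against 10.2%) reached 2-fold lower. Their median was 0.60 (totals 1.21), and 44 (89.8%, against 49.2%) lay above 0. Phosphatidylinositol-4,5-bisphosphate 3-kinase, which makes the lipid messenger PIP3, had 425 light reads and 119 dark reads (1.27). The non-receptor kinases Src and Yes, which act at integrin contacts, had 411 and 430 reads in light, against 131 and 144 reads in dark (1.09 and 1.02). Kinase 7 of the MAP kinase kinase kinases (TAK1 in mammals) had 74 light and 18 dark reads (1.45), and protein kinase D had 58 light and 15 dark reads (1.36). The lower one, tyrosine kinase receptor 1, also had the most reads of the list: 3481 in light and 5933 in dark (-1.33).

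In the Notch, Wnt, BMP and TGF-beta list, 6 of 16 members (37.5%, against 7.55% of all orthologies) reached 2-fold higher and 2 (against 10.2%) lower. Under the pattern as first written the list had 26 members, again with 6 higher and 2 lower. Its median relative to all orthologies was then 0.31 instead of 0.42. Jagged, a membrane-bound ligand of Notch, had 173 light reads and 15 dark reads, 7.83-fold higher (interval 4.62 to 14.3). With the pseudocount of 0.5 reads its log2 ratio of 2.93 was the highest of all 2239, whereas without it homer and complement factor I, with fewer reads, stood at 8.31-fold. Jagged rests on 1 isotig with an E-value of 3e-10, so it has no value once isotigs above 1e-10 are left out. The other ligand, delta, had 543 light and 303 dark reads (0.28). Notch itself had 6135 reads in light and 10640 in dark, 2.56-fold lower (2.48 to 2.64). That value rested on isotigs with weak KEGG hits: without isotigs whose E-value was above 1e-10 the Notch ratio was 0.28. Its targets of the hairy and enhancer of split family, with 29 and 36 light reads against 32 and 32 dark reads, were at -0.70 and -0.39 on size factors and at -0.09 and 0.21 on totals. On the Wnt side the receptor frizzled 9/10 had 404 reads in light and 125 in dark (1.13). Most of these lay on a single isotig of 378 light and 98 dark reads (1.38, E-value 2e-11). Its other isotig, with an E-value of 3e-44, had 26 light and 27 dark reads (-0.61). The adenomatosis polyposis coli protein, part of the beta-catenin destruction complex, had 47 light and 8 dark reads (1.92). The dishevelled-binding activator DAAM had 153 light and 39 dark reads (1.40). The ligand BMP 2/4 had 16 light reads and 48 dark reads, 4.42-fold lower (interval 2.47 to 8.34), while TGF-beta receptor III, which presents TGF-beta family ligands, had 122 light and 35 dark reads (1.23).

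Of 23 genes of phototransduction and G protein signalling, 3 (13.0%, against 7.55% of all orthologies) were at least 2-fold higher and none lower. These were adenylate cyclase 9 with 66 light reads and 10 dark reads (2.10), phospholipase C gamma-1 with 154 light and 24 dark reads (2.10), and soluble guanylate cyclase beta with 45 light and 13 dark reads (1.19), all enzymes that make second messengers. Others of these enzyme families in the list did not share this. Adenylate cyclase 2 had 80 light and 65 dark reads (-0.26, totals 0.34). Phospholipase C epsilon had 180 light and 146 dark reads (-0.26, totals 0.35), and phospholipase C beta 73 light and 31 dark reads (0.66). The G protein subunits lay closer: Gq alpha, which couples to opsins in many invertebrate photoreceptors, had 358 reads in light and 209 in dark (0.22). Beta-arrestin, which ends receptor signalling, had 561 light and 529 dark reads (-0.47, totals 0.13). The G protein receptor kinase had 249 light and 89 dark reads (0.92). Clock genes were few. The nuclear receptors NR1D1, NR1D2 and NR1D3, repressors of the clock in vertebrates, had 198, 40 and 56 light reads, against 94, 16 and 41 dark reads (0.51, 0.74 and -0.11, the last 0.49 on totals). Timeless had 58 light and 48 dark reads (-0.29, totals 0.32). Casein kinase 1 gamma, with 284 light and 96 dark reads, was the 1 member of 6 that reached 2-fold, against 7.55% of all orthologies. It did so at the limit (2.01-fold higher, interval 1.59 to 2.56). It is in the list through a pattern on its name, and a clock role here was not tested.

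Of 46 solute carriers 11 (23.9%, against 7.55% of all orthologies) were at least 2-fold higher and 2 (4.35%, against 10.2%) lower, with a median of 0.32 (totals 0.92). The sodium/potassium/chloride transporter of family 12 had 143 light reads and 26 dark reads (1.88). The choline transporter-like protein of family 44 had 189 light and 37 dark reads (1.78), and the monocarboxylic acid transporter of family 16 had 382 light and 84 dark reads (1.62). The most-read member, the adenine nucleotide translocator that exchanges ADP and ATP across the inner mitochondrial membrane, lay on the other side with 2714 reads in light and 3259 in dark (-0.82, totals -0.22).

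Stress and quality-control genes gave no common direction. In the heat shock and folding list 5 of 48 members reached 2-fold higher and 6 lower, against 7.55% and 10.2% of all orthologies. The higher ones were 4 DnaJ cochaperones and FK506-binding protein 4/5, which had 234 light reads and 61 dark reads (1.37). The lower ones included chaperonin GroES of the mitochondrial matrix with 40 light and 67 dark reads (-1.30) and heat shock protein 110kDa with 15 light and 35 dark reads (-1.75). Heat shock protein 90kDa beta, the most-read chaperone after protein disulfide-isomerase A1, had 3356 reads in light and 3353 in dark (-0.56, totals 0.05). Of 11 antioxidant genes 1 was at least 2-fold lower, against 10.2% of all orthologies. It was thioredoxin 1, with 102 light and 174 dark reads (-1.33). Cu/Zn superoxide dismutase had 277 light and 371 dark reads (-0.98), catalase 558 light and 582 dark reads (-0.62), and peroxiredoxin 6 had 157 light and 59 dark reads (0.84). Among 10 immediate-early and stress transcription factors 1 was at least 2-fold lower, against 10.2% of all orthologies, and none higher. That was AP-1 (Jun), with 29 light reads and 44 dark reads (-1.15, totals -0.55). The median of these factors relative to all orthologies was -0.04. The undivided proteasome list had 3 of 27 members at least 2-fold lower, near the 10.2% of all orthologies, and none higher. These were 3 of 12 members of the 20S core, beside 0 of 16 of the 26S regulatory particle. That division was added after the ratios were seen. The core's beta 6 subunit was lowest, with 39 light and 108 dark reads (-2.02). The lysosome list had 3 of 29 members at least 2-fold higher and 1 lower, against 7.55% and 10.2% of all orthologies. Its membrane protein LAMP 1/2 had 1295 light and 235 dark reads (1.90), though its best KEGG hit had an E-value of only 3e-09. Saposin, an activator of sphingolipid breakdown, had 429 light and 117 dark reads (1.31). The lower one, alpha-glucosidase, had 110 light and 164 dark reads (-1.13). Legumain, the most-read member, had 3483 light and 3288 dark reads (-0.48, totals 0.13).

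Immune recognition genes were split, with 3 of 17 (17.6%, against 7.55% of all orthologies) at least 2-fold higher and none lower. The 3 with the most reads were below 0 on size factors: the mannose receptor, an endocytic lectin, had 15144 light reads and 18928 dark reads (-0.88, totals -0.28), complement component 4 had 6378 light and 8259 dark reads (-0.93, totals -0.33), and ficolin, a lectin that starts complement, 12133 light and 12001 dark reads (-0.54, totals 0.06). Complement component 3, the central protein of the cascade, had 1839 reads in light and 906 in dark (0.46), and factor H, its inhibitor, 304 light and 137 dark reads (0.59). At least 2-fold higher were macrophage scavenger receptor 1 with 61 light and 13 dark reads (1.63), the metal transporter NRAMP with 58 light and 15 dark reads (1.36), and complement factor I with 49 light and 4 dark reads (2.90, best E-value 2e-06). In the separate apoptosis and NF-kappa-B list 3 of 18 members reached 2-fold higher and 1 lower, against 7.55% and 10.2% of all orthologies. The higher ones, intracellular signal proteins, included TANK-binding kinase 1 with 75 light reads and 16 dark reads (1.63). Toll-interacting protein had 232 light and 76 dark reads (1.04), and TNF receptor-associated factor 1 had 55 light and 14 dark reads (1.38). The lower one was toll-like receptor 3, with 26 light and 36 dark reads (-1.02, totals -0.42). Toll-like receptor 2 had 75 light and 50 dark reads (0.02, totals 0.63). The orthology with the most reads of all, melanoma-associated antigen p97, is a membrane-anchored iron-binding protein of the transferrin family in vertebrates. It counted 73420 in light and 30908 in dark, 1.61-fold higher (interval 1.59 to 1.63) on size factors and 1.29 (log2) on totals, and 1 of its isotigs supplied 72889 light reads and 30465 dark reads.

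A sum over an orthology can join isotigs that differ. Of 567 orthologies with at least 2 isotigs of 50 reads, 26 had 1 or more isotigs at least 2-fold higher in light and 1 or more at least 2-fold lower. Isotigs of an orthology may be fragments of 1 gene or copies of several, and they share the same libraries. Ficolin was the widest family, with 105 isotigs, of which 51 had at least 50 reads: 3 were higher and 16 lower, between -2.41 and 1.49. Over all 3194 isotigs of at least 50 reads in the described orthologies, 334 were higher and 373 lower. A ficolin isotig had 353 light reads and 85 dark reads, and another had 192 light reads and 633 dark reads. Notch ran from an isotig of 3712 light reads and 8201 dark reads (-1.70) to one of 56 light and 8 dark reads (2.17). In tenascin a single isotig had 5 reads in light and 86 in dark (-4.53) beside another of 589 light and 304 dark reads (0.39). In the mannose receptor all 16 isotigs of 50 reads lay below 0 on size factors, and integrin beta 1 was as even on the other side. Among orthologies at least 2-fold higher with 2 or more isotigs of 20 reads, all such isotigs agreed in sign in 59 of 65, and among lower ones in 52 of 64. Over all 918 described orthologies with 2 or more such isotigs, they agreed in 468. Orthologies picked by their summed ratio mostly hold isotigs of the same sign, so this agreement adds no support.

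**Figure D4:**
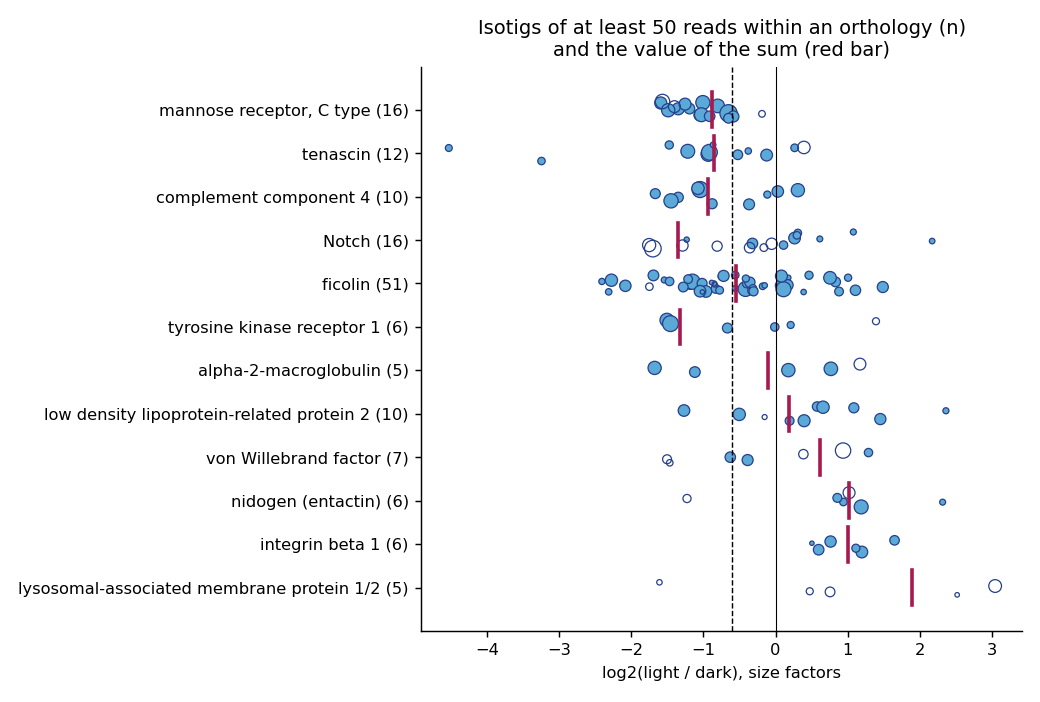
Each circle is an isotig of at least 50 reads in 1 of 12 orthologies (y), with its log2 ratio of light over dark on size factors (x); larger circles have more reads, and open circles have a KEGG E-value above 1e-10. The red bar is the ratio of the summed reads, the solid line equality on size factors and the dashed line equality on library totals. Ficolin and Notch spread to both sides, whereas mannose receptor isotigs stay below 0.

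Isotigs without a KEGG hit, which belong to none of the 2239 orthologies, had lower ratios than those with one. Among isotigs of at least 50 reads, the 4359 without a hit had a median log2 ratio of -0.62 on size factors and -0.01 on totals, and the 3194 with a hit had -0.01 on size factors and 0.60 on totals. Those without a hit took 42.02% of light reads and 49.6% of dark reads. The scale therefore depends on which features are summed: the ratio of size factors of light over dark was 1.47 from orthologies and 1.19 from single isotigs, beside 0.969 from totals. In 941 isotigs whose reads were within 1.1-fold, a median of 81.4% of the length was covered in light and 81.9% in dark. The part of these shifts in the differences between genes was not tested.

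**Figure D5:**
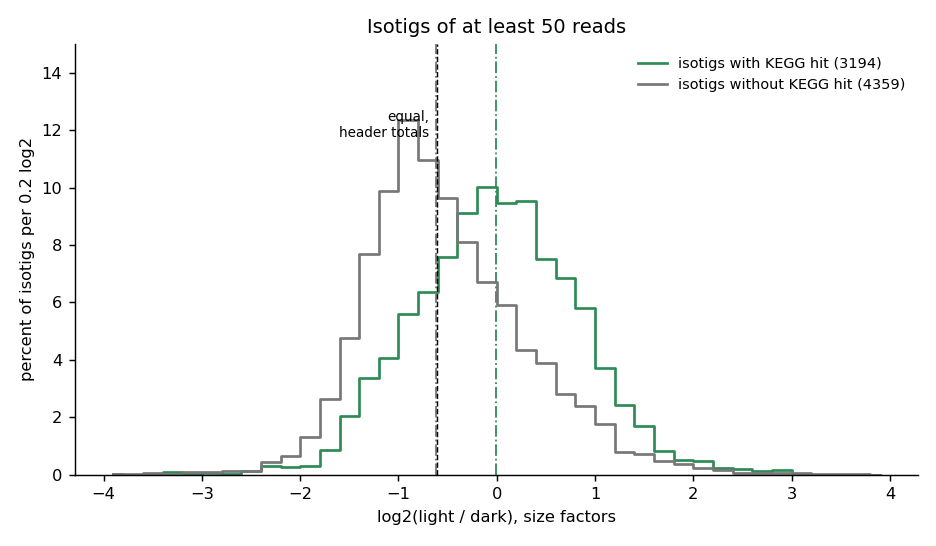
Share of isotigs of at least 50 reads (y, percent per 0.2 log2) by log2 of light over dark on size factors (x), with a KEGG hit (green, 3194) and without one (grey, 4359). The dash-dotted lines are their medians, -0.01 and -0.62, and the dashed line is equality on library totals, close to the median of isotigs without a hit.

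Short or weak matches stood behind several leading values. Of the 12 highest and 12 lowest orthologies of at least 200 reads and the 6 highest and 6 lowest below 200, 36 in all, 7 had no isotig with an E-value of 1e-10 or below. These were jagged, LAMP 1/2, complement factor I, NADH dehydrogenase 1 alpha subcomplex 1, the epidermal growth factor, RecQ helicase Q4 and receptor-type tyrosine phosphatase D. In neurocan and K06942 such isotigs held 1.86% and 15.1% of the reads. The epidermal growth factor orthology, with 972 light reads and 107 dark reads (6.16-fold higher, with 5.04 as the lower bound of the interval), was 1 isotig of 225 bases with an E-value of 8e-07. The RecQ helicase Q4, with 284 light and 70 dark reads (1.45), had an E-value of 2e-06. Orthology K06942, for which the files give no name, had 397 light and 1265 dark reads (-2.23), and 0.13 once isotigs above 1e-10 were left out. In the other 27 nearly all reads lay on isotigs at or below that limit, among them the phosphatase PTPN13 with 124 light reads and 12 dark reads (2.76), the synaptic scaffold homer with 49 light and 4 dark reads (2.90), and histone deacetylase 4/5 with 46 light and 6 dark reads (2.28).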

How the data were processed

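Messenger RNA of the light and the dark library was selected on oligo(dT) beads, fragmented and copied from random primers, per the labels' protocols. CASAVA 1.5 was used, per the submitters' processing notes; no source used here names the assembler, aligner or filters. The authors deposited, per the file headers, read counts per isotig (unique assignments), the percent of each isotig covered, and RPKM, which equalled reads divided by length and by the header total. Isotigs absent from a library's table were taken as 0 counts.

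Counts were summed over isotigs with the same first KEGG orthology, in Python 3.11.15 with pandas 2.3.3, numpy 2.4.6 and scipy 1.17.1. Of the isotigs with a KEGG hit, those with several orthology identifiers entered under the first. Ratios are (light + 0.5)/(dark + 0.5) reads divided by the ratio of median-of-ratios size factors, or of header totals. Intervals are exact conditional binomial (Clopper-Pearson, 95%) and cover counting error only, since reads carry no molecular identifiers; they and the folds printed with them use no pseudocount. The scripts were tested on simulated data. edgeR 4.0.16 in R 4.3.3 supplied TMM factors as an alternative. No test was run, because each condition has 1 library.

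Named orthologies are, of those with at least 200 reads, the 12 highest and 12 lowest; of those with 50 to 199, the 6 highest and 6 lowest; in each list up to 5 members per direction at least 2-fold apart and the 2 with the most reads; the 10 with the most reads; and the 8 with the most reads among those whose isotigs differ in direction. Other list members named, such as L3e, LP0, ATP synthase beta, laminins, collagen IV, integrin alpha 8, CELSR1, talin, Src, Yes, Gq alpha, the clock receptors, complement component 3 and superoxide dismutase, were added after their values were seen.

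The members, the gene lists and the tests were chosen with earlier results of these data known. The lists are patterns on KEGG names. Their patterns were edited after the members' ratios had been printed: false matches were taken out, sub-lists of the ribosome, translation factors and proteasome were added, a list of mitochondrially encoded genes was added, and the list of collagens and basement membrane was divided into basement membrane and interstitial matrix. The lists given most room were also picked after their medians were seen, so the order and contrast of lists is a description. The undivided list is reported beside its parts, and the patterns as first written are among the alternatives.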

Additional observations from a re-analysis of the deposited data

How the results depend on the processing

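The counts of orthologies at least 2-fold higher and lower in light, 169 and 229, depended mainly on the scaling. They were 617 and 21 on header totals, 369 and 96 with a size factor over single isotigs, and 442 and 61 on totals without ribosomal proteins and the 20 most abundant isotigs. TMM factors gave 181 and 220. A minimum of 20 reads gave 256 higher, a minimum of 200 gave 43 and 142, and no minimum gave 408 and 412. A pseudocount of 5 reads gave 110 higher. A limit of 1.5-fold gave 453 and 515, and a limit of 4-fold gave 12 and 7. The median of the ribosomal proteins relative to all orthologies was -1.31, and -1.24 at the 200-read minimum. With isotigs of E-value above 1e-10 left out, Notch was at 0.28 and K06942 at 0.13, both reversed in sign, and neurocan at -0.31; these alternatives differ from the reported values in the isotigs summed. Of 35 gene lists, those whose members differed under the patterns as first written (added after seeing the data) include complement and lectins, whose median relative to all orthologies was 0.26 with 24 members instead of -0.05 with 17. Leaving out ribosomal proteins left 156 lower. No paired analysis was possible because each condition has 1 library. Depth limits orthologies under 100 reads, where counting error alone spans over 2-fold.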

Other observations

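Among isotigs without a KEGG hit, 164 held at least 1000 reads, and on library totals 14 of them were at least 2-fold higher in light and 11 at least 2-fold lower. For all 4359 isotigs of at least 50 reads without a hit, the counts on totals were 614 higher and 243 lower. On size factors those counts were 213 higher and 1222 lower. The lowest of the 164 had 4435 light reads and 15177 dark reads over 658 bases (-1.73 on totals), and the files give it no name. A pair of unnamed isotigs near the other end had 2149 and 2124 reads in light, against 596 and 579 reads in dark (1.90 and 1.92 on totals). These are values of single libraries.

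Other gene groups were close to the share of all orthologies or divided. Of 56 splicing and nuclear RNP orthologies 6 (10.7%, near the 10.2% of all orthologies) were at least 2-fold lower and none higher, with a median of -0.29 on size factors and 0.32 on totals. The lower ones included the small ring proteins LSm3, LSm6 and LSm7 of the U6 snRNA, which had 30, 57 and 45 reads in light, against 95, 94 and 70 reads in dark. In the cytoskeleton, dynein light chain LC8 had 636 light reads and 1024 dark reads (-1.25), whereas the cytosolic dynein light intermediate chain 1 had 106 light reads and 33 dark reads (1.11). Microtubule-associated protein 1 had 1537 light reads and 498 dark reads (1.07). Myosin VI, a motor that moves towards the minus end of actin, had 69 light reads and 20 dark reads (1.20). Of 56 ubiquitin ligases and cullins 4 (7.14%, near the 7.55% of all orthologies) were at least 2-fold higher, among them Mdm2, which had 94 light reads and 23 dark reads (1.45), and 1 was lower. Of 9 digestive enzymes 3 were at least 2-fold lower, against 10.2% of all orthologies, and none higher. The list median was -0.18 (totals 0.42). The lower ones were alkaline phosphatase with 19 light reads and 56 dark reads (-2.09), and pancreatic lipase-related proteins 1 and 2 with 297 and 34 reads in light, against 607 and 49 reads in dark (-1.59 and -1.08). Aminopeptidase N had 220 light reads and 91 dark reads (0.71), cubilin had 7167 light reads and 4089 dark reads (0.25), and triacylglycerol lipase and intestinal mucin-2 also lay above 0 (0.26 and 0.20).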
